A study of Schizosaccharomyces pombe with 6 samples.

Results

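The large subunit of the cytosolic ribosome of *Schizosaccharomyces pombe* (fission yeast) is built from ribosomal RNA and many proteins, and most of these proteins are encoded by more than 1 gene. The 59 genes described here encode proteins of this 60S subunit. They comprise 52 *rpl* genes and 7 *rpp* genes of the P-stalk, the flexible arm of the subunit, and they were taken from a fixed list of gene identifiers among the 7268 genes of the count table. The rule used no expression value. All 59 passed the filter on low counts that left 6018 genes for testing, and 23 further 60S genes carrying an *rpl* symbol were not in the list.

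RNA-seq libraries were compared from wild type (WT, strain 972), from cells with *saf5* deleted (*Δsaf5*) and from cells with *cwf12* deleted (*Δcwf12*), with 2 libraries from each strain described as biological duplicates. All cultures were untreated and grew at 30°C in rich YE5S medium to logarithmic phase, at an optical density of 0.5. Cwf12 belongs to the Prp19-associated complex of the spliceosome. Saf5 has been described as needed to produce the small nuclear ribonucleoproteins that make up the spliceosome. According to the paper, its part in assembling them still lacks rigorous proof in fission yeast. The libraries were made to follow the effect of each deletion on splicing, and only expression per gene is described here. The strain list of the study holds leucine-auxotrophic deletion strains marked with antibiotic resistance, whereas 972 is a prototroph, and the labels do not say which isolates were sequenced, so that effects of the deletion, the marker and the background cannot be told apart.

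The libraries held between 9113139 and 12054198 counts assigned to genes. Counts on *cwf12* were 556 and 531 in WT, 534 and 577 in the libraries labelled *Δsaf5*, and 41 and 32 in *Δcwf12*. Counts on *saf5* were 323 and 234 in WT, 355 and 298 in *Δcwf12*, and 220 and 249 in the libraries labelled *Δsaf5*. Thus reads on *cwf12* were largely lost in *Δcwf12*, but reads on *saf5* were not lost in the libraries labelled *Δsaf5*. The reason was not tested, and every direction given below for that strain rests on its label. Duplicates differed by more than sampling noise in each strain (chi-square over its degrees of freedom, 1.99 to 21.9), and all 6 were kept as separate libraries.

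Ribosomal proteins must be made in matched amounts, and their genes rank among the most active of a growing yeast cell. In fission yeast many of their promoters carry a HomolD box, which stands in for a TATA element, and some carry a HomolE box beside it. Introns, which in budding yeast are concentrated in ribosomal protein genes, are spread over much of the fission yeast genome. In the RefSeq annotation of the ASM294v3 genome, 24 of the 59 genes contained introns (25 introns, of which *rpp102* held 2), and 35 contained none. The introns measured 44 to 324 bases, with a median of 95, and 14 began with GTAAGT and 8 with GTATGT.

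The 3 genes of the P2 stalk protein had the widest gap in fold change among paralogues within the members. Of the members, *rpl39* had the highest fold change in both deletions, as described below. Each of these 4 genes holds 1 intron. Their introns are given on the coding strand, with the first 6 and the last 3 bases in capitals, where the spliceosome recognises the 5′ and the 3′ end:
rpp201 intron, chrII:3643498-3643560, plus strand: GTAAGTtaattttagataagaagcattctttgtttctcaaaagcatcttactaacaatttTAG
rpp202 intron, chrII:2128056-2128101, minus strand: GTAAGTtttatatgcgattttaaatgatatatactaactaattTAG
rpp203 intron, chrI:3869454-3869547, plus strand: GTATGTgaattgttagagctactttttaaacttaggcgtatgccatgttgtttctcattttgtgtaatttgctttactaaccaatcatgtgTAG
rpl39 intron, chrIII:1641181-1641242, plus strand: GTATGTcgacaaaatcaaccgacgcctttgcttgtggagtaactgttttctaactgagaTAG
rpl3602 intron, chrII:3153724-3153798, plus strand: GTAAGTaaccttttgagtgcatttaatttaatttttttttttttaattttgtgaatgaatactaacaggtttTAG
The 46 bases of the *rpp202* intron make it shorter than those of *rpp201* (63) and *rpp203* (94). The intron of *rpl3602*, 1 of 3 members that rose in *Δcwf12*, is shown with them.

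Promoters were read as 300 bases around the annotated transcript start, 250 before it and 50 after it. The letters CAGTCACA of the HomolD box, on either strand, were present in 38 of 59 members (64.4%) and in 2.68% of 5112 promoters of coding genes. The core letters CCCTACCCT of the HomolE box were present in 21 of 59 members (35.6%) and in 1.53% of coding promoters, and both motifs in 14 members (23.7%) and 0.646%. Neither motif contains the other. The HomolD letters of *rpl39* lay 45 bases and those of *rpp203* 74 bases before the start. By exact letters, *rpp202* and *rpl3602* held only the HomolE core, at 63 and 67 bases. The stretches around these letters show that difference, with each motif in capitals:
rpp201 promoter, chrII:3643077-3643144, plus strand: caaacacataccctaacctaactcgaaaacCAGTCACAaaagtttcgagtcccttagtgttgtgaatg
rpp202 promoter, chrII:2128492-2128560, minus strand: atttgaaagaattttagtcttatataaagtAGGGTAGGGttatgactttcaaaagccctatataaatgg
rpp203 promoter, chrI:3868985-3869052, plus strand: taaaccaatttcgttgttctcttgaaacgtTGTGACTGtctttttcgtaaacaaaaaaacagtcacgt
rpl39 promoter, chrIII:1640941-1641008, plus strand: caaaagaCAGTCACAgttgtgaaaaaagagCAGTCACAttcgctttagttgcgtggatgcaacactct
rpl3602 promoter, chrII:3153391-3153459, plus strand: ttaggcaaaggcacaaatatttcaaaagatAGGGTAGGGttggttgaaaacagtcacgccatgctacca
rpl301 promoter, chrI:1756006-1756073, plus strand: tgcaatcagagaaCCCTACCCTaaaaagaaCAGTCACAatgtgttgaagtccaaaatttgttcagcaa
The *rpl301* stretch is shown as an example with both motifs. A match describes exact letters only, and binding was not measured. The *rpl3602* stretch holds cagtcacg, which differs from the HomolD letters in its last letter and was not counted.

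The 59 genes took 8.66% and 8.03% of all counts in the WT libraries, 6.32% and 7.04% in the libraries labelled *Δsaf5*, and 8.03% and 7.96% in *Δcwf12*. The means ± SD of 2 libraries were 8.35% ± 0.45 for WT, 6.68% ± 0.51 for *Δsaf5* and 8.0% ± 0.047 for *Δcwf12*. Both *Δsaf5* libraries lay below all 4 others, while *Δcwf12* and WT overlapped. The 95% Wilson intervals of these shares spanned at most 0.018 percentage points to either side and cover counting error only. No test was made, because 2 libraries against 2 cannot pass an exact permutation test. The 40S genes, which encode the proteins of the small subunit, moved alongside, with 8.49% and 7.86% in WT, 6.25% and 7.0% in *Δsaf5*, with 8.04% and 7.96% in *Δcwf12*. In the same libraries the 10 genes with the most counts outside the members took 10.7% and 11.3% of counts in *Δsaf5* but 6.22% and 8.23% for WT and 8.79% and 8.46% for *Δcwf12*. Their part in the lower share of the ribosomal genes was not tested, and without those genes the members took a mean of 8.99% for WT, 7.5% for *Δsaf5* and 8.75% for *Δcwf12*. A bulk library gives relative amounts, in which fewer cells of a type and less RNA per cell cannot be told apart.

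**Figure D1:**
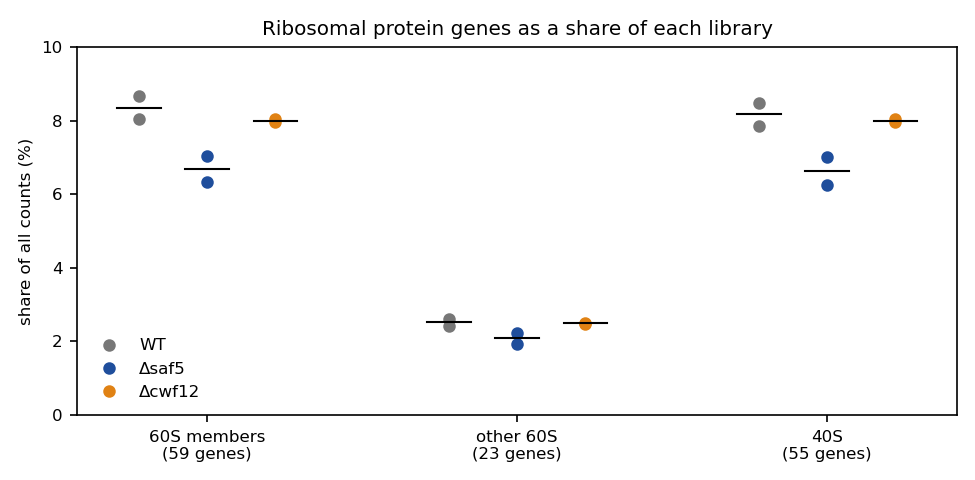
Share of all counts (%) taken by the 59 members, 23 other 60S genes and 55 genes of the 40S subunit. Each point is 1 library and each bar the mean of 2; both *Δsaf5* libraries (6.32% and 7.04% for the members) lie below the 4 others in each group.

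Gene by gene, 53 of 59 members were lower in the libraries labelled *Δsaf5* than in WT, none was higher, and 6 did not pass the test (edgeR's quasi-likelihood test with Benjamini-Hochberg adjustment over 6018 genes, adjusted p under 0.05). Of all genes tested, 25.5% were lower and 24.7% higher by the same rule. At an unadjusted p under 0.05, 2 members were higher and 53 lower (1710 and 1702 of all 6018 genes). DESeq2 called 1 higher and 54 lower (1005 and 1284 of those genes). With only WT and *Δsaf5* fitted, 0 members were higher and 44 lower, against 1297 and 1318 of 5987 genes. The fitted log2 fold changes of the members ranged from −0.90 to 0.25 with a median of −0.46, against a median of 0.02 over all genes, and 57 of 59 were negative. The changes were small in size. Of the members, 18 were lower by at least 1.5-fold, a rule met by 7.34% of all genes, and none reached 2-fold in either direction. Levels given as CPM, a gene's count relative to its library's total after TMM scaling of that total, showed both *Δsaf5* libraries below both WT libraries for 56 members, against 35.6% of all genes. The exceptions were *rpl39* and *rpp202*, which lay above WT, and *rpl3602*, which overlapped.

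**Figure D2:**
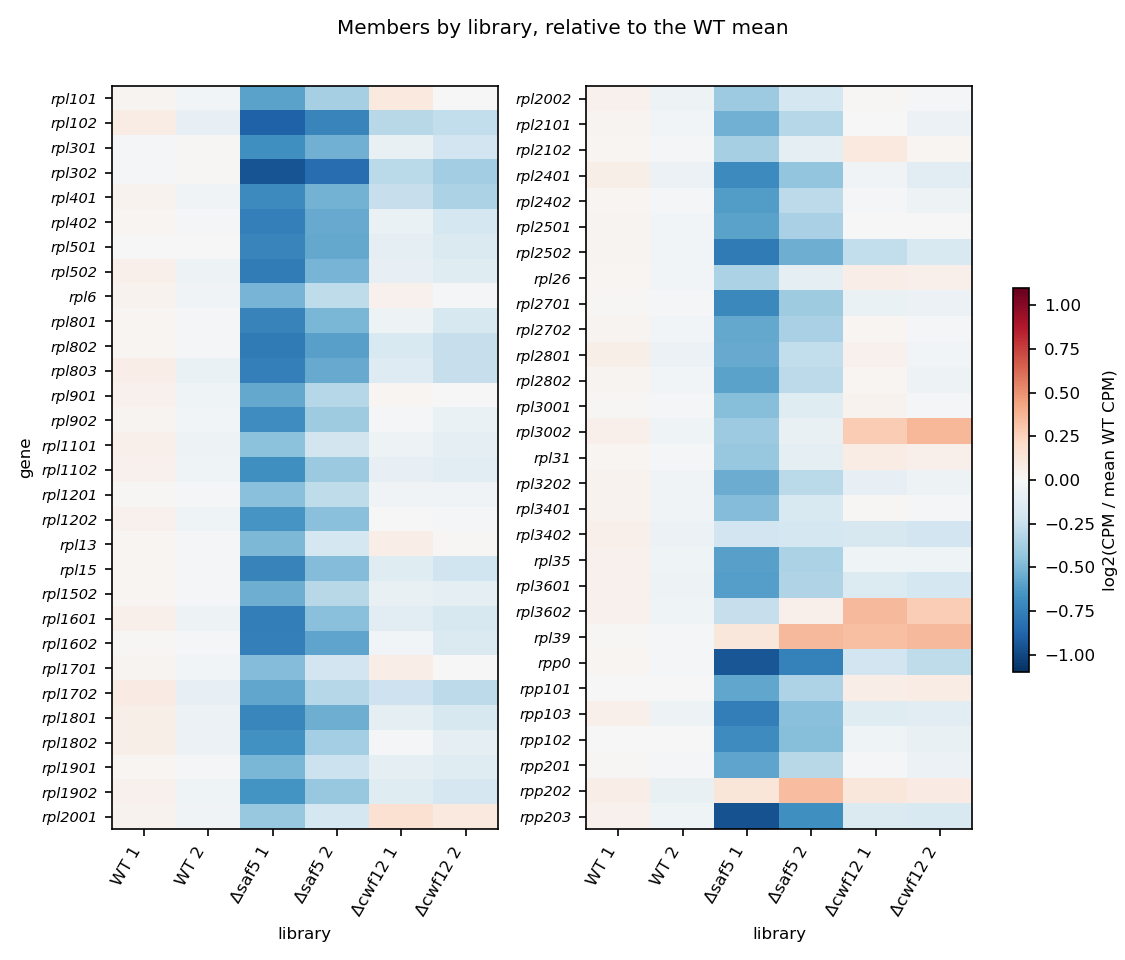
Log2 of the CPM of each member in each library over its mean CPM in WT, for all 59 genes and 6 libraries. Blue is lower and red higher than the WT mean; the *Δsaf5* columns are blue for 56 genes, and *rpl39* and *rpp202* stand out in red.

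The member furthest below WT was *rpl302* (SPAPB8E5.06c), 1 of 2 genes for L3, a protein that reaches towards the peptidyl transferase centre. It measured 1078 and 1094 CPM in WT, 562 and 606 in the libraries labelled *Δsaf5*, and 885 and 831 CPM in *Δcwf12*. The 3 strains did not overlap, with *Δcwf12* in between. The log2 fold change was −0.90 ± 0.09 (SE) in *Δsaf5* (edgeR adjusted p = 7.07e-06) and −0.34 ± 0.09 in *Δcwf12* (edgeR adjusted p = 0.00584). *rpl301* and *rpl302* are 96.3% identical in coding sequence, so that the split of reads between them is uncertain, but *rpl301* was also lower in *Δsaf5*, by −0.60 ± 0.10 on the log2 scale.

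*rpl102* (SPBC30D10.18c), 1 of 2 genes for L1, the protein of the mobile stalk beside the exit site for transfer RNA, gave 566 and 501 CPM in WT, 288 and 322 in *Δsaf5*, with 431 and 442 in *Δcwf12*. Again no strain overlapped another. Its log2 fold changes were −0.81 ± 0.09 in *Δsaf5* (edgeR adjusted p = 1.72e-05) and −0.29 ± 0.09 in *Δcwf12* (edgeR adjusted p = 0.0148). Its more abundant paralogue *rpl101* gave 2307 and 2210 CPM in WT, 1501 and 1749 in *Δsaf5*, with 2439 and 2255 in *Δcwf12*. Here only *Δsaf5* stood apart, at −0.47 ± 0.11 on the log2 scale (edgeR adjusted p = 0.0038).

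The P-stalk recruits the translation factors that hydrolyse GTP on the ribosome. Its base is P0, which binds ribosomal RNA and carries dimers of the small acidic proteins P1 and P2. *rpp0* (SPCC18.14c), the single gene for P0, measured 3718 and 3618 CPM in WT, 1905 and 2196 in the libraries labelled *Δsaf5*, and 3178 and 3022 in *Δcwf12*. It was lower in *Δsaf5* by −0.84 ± 0.12 on the log2 scale (edgeR adjusted p = 0.000116). In *Δcwf12* the value was −0.24 ± 0.12, which did not pass the test (edgeR adjusted p = 0.102), although both libraries lay below WT. It passed under 5 of 14 other settings (DESeq2 adjusted p = 0.0208).

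All 3 genes for P1 were lower in *Δsaf5*. *rpp101* went from 753 and 747 CPM in WT to 505 and 594 in *Δsaf5*, *rpp102* from 1036 and 1043 to 645 and 752, and *rpp103* from 759 and 704 to 433 and 531. Their log2 fold changes lay close together, at −0.45, −0.57 and −0.60 (edgeR adjusted p from 0.000354 to 0.00171). None of the 3 passed the test in *Δcwf12*.

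The 3 genes for P2 went apart. *rpp203* (SPAC1071.08) gave 521 and 487 CPM in WT, 259 and 316 in the libraries labelled *Δsaf5*, and 452 and 449 in *Δcwf12*. *rpp201* (SPBP8B7.06) gave 1221 and 1195 CPM in WT, 806 and 975 in *Δsaf5*, with 1194 and 1153 in *Δcwf12*. *rpp202* (SPBC23G7.15c) gave 976 and 878 CPM in WT, 1018 and 1170 in *Δsaf5*, with 1011 and 985 in *Δcwf12*. Thus the first 2 were below WT in both *Δsaf5* libraries and *rpp202* was above it. The log2 fold changes against WT were −0.81 ± 0.10 for *rpp203* (edgeR adjusted p = 3.14e-05), −0.44 ± 0.10 for *rpp201* (edgeR adjusted p = 0.00367) and 0.24 ± 0.10 for *rpp202*, which did not pass the test (edgeR adjusted p = 0.0597). The value of *rpp202* passed under 4 of 14 other settings. The gap of 1.05 between *rpp202* and *rpp203* on the log2 scale was the widest of the 24 paralogue families formed among the members. *rpp202* shares 80.9% of its residues with *rpp201* and 80% with *rpp203*, which are 90.9% identical to each other.

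L5 and L11 bind 5S ribosomal RNA and enter the subunit with it as 1 particle. *rpl501* and *rpl502*, which encode L5 proteins that are 99.7% identical, measured 2846 and 2835 CPM and 3226 and 2982 CPM in WT, and 1717 and 1928 and 1826 and 2184 CPM in the libraries labelled *Δsaf5*. The paralogues fell by the same amount within their errors, at −0.64 ± 0.11 and −0.63 ± 0.12 on the log2 scale (edgeR adjusted p = 0.000451 and 0.000978). The genes for L11 differed more. *rpl1102* was lower by −0.54 ± 0.11 (edgeR adjusted p = 0.0013) and *rpl1101* by −0.32 ± 0.10 (edgeR adjusted p = 0.0194, lost under 3 of 14 other settings), although both encode the same protein. None of the 4 passed the test in *Δcwf12*, where their values lay between −0.13 and −0.08.

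*rpl39* (SPCC663.04) encodes the smallest of these proteins, which lines the exit tunnel of the growing peptide, and has the shortest transcript, at 318 bases of exon. It measured 1196 and 1168 CPM in WT, 1292 and 1516 in the libraries labelled *Δsaf5*, and 1491 and 1511 in *Δcwf12*. All 4 deletion libraries were above WT. The log2 fold change was 0.34 ± 0.10 in *Δcwf12* (edgeR adjusted p = 0.0131) and 0.25 ± 0.10 in *Δsaf5*, where it did not pass the test (edgeR adjusted p = 0.0575). In *Δsaf5* it passed under 4 of 14 other settings (DESeq2 adjusted p = 0.0375), and the call in *Δcwf12* was lost under 2. The deletions did not differ detectably from each other, at −0.10 ± 0.10 (edgeR adjusted p = 0.446).

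**Figure D3:**
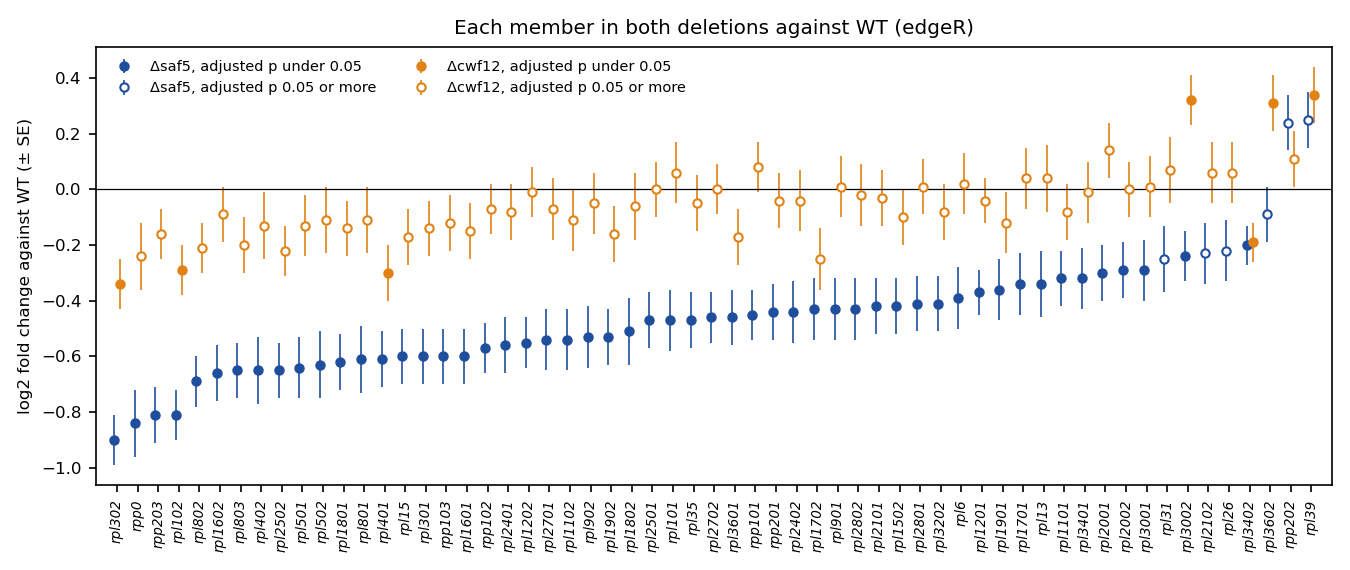
Fitted log2 fold change against WT (± SE) of each member, ordered by its value in *Δsaf5*; filled points have an edgeR adjusted p under 0.05. In *Δsaf5* 53 points are filled and all of them negative, from *rpl302* at −0.90 on the left; in *Δcwf12* 7 points are filled, 3 positive and 4 negative.

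In *Δcwf12* 3 members were higher than WT and 4 lower, and 52 did not pass the test (edgeR, adjusted p under 0.05), where 25.5% of all genes were higher and 25.0% lower. DESeq2 called 3 higher and 6 lower, against 1156 and 1163 of all 6018 genes. The median log2 fold change was −0.07, against −0.00 over all genes, within a range of −0.34 to 0.34, and none of the 59 reached 1.5-fold. Of all 6018 genes, 827 were called higher and 410 lower by at least 1.5-fold. Both *Δcwf12* libraries lay below both WT libraries for 30 members, against 37.8% of all genes, and above them for 8, against 38.0%. Of the 59, 21 overlapped with WT. These calls changed with the libraries included. The number of calls over all genes changed as well. A strain left with 1 library was assumed to vary like the other strains, so calls are not counted for those fits. The median of the members was −0.08 without the first *Δcwf12* library and −0.05 without the second, against −0.01 and −0.02 over all genes. It was −0.10 without the second WT library, −0.03 without the first WT library and −0.07 without either *Δsaf5* library.

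The members higher in *Δcwf12* were *rpl39*, *rpl3602* and *rpl3002*, and each of the 3 contains an intron. Of 24 members with introns, 3 were higher and 1 lower (median log2 fold change −0.05). Of 35 without introns, 0 were higher and 3 lower (median −0.08). By exon length, 3 were higher and 0 lower among 30 members up to the median, and 0 and 4 among 29 above it. Introns and length were not tested apart. *rpl3602* (SPBC405.07), 1 of 2 genes for L36, gave 625 and 585 CPM in WT, 774 and 730 in *Δcwf12*, and 506 and 630 in the libraries labelled *Δsaf5*. *Δcwf12* stood above both other strains. The log2 fold change was 0.31 ± 0.10 in *Δcwf12* (edgeR adjusted p = 0.0235) and −0.09 ± 0.10 in *Δsaf5* (edgeR adjusted p = 0.483), where its sign turned to 0.05 with library totals. The direct difference of *Δsaf5* from *Δcwf12*, −0.41 ± 0.10, passed the test (edgeR adjusted p = 0.00598), a call lost under 2 of 14 other settings. Its paralogue *rpl3601* measured 1011 and 941 CPM in WT, 643 and 775 in *Δsaf5*, with 881 and 853 in *Δcwf12*, and was lower in *Δsaf5* (−0.46 ± 0.10, edgeR adjusted p = 0.00251).

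*rpl3002* (SPAC1250.05) is the minor gene for L30, a protein that in budding yeast binds its own transcript and holds back its splicing. It gave 163 and 152 CPM in WT, 191 and 202 in *Δcwf12*, and 119 and 148 in the libraries labelled *Δsaf5*. The 3 strains did not overlap and *Δcwf12* was the highest. Its log2 fold change was 0.32 ± 0.09 in *Δcwf12* (edgeR adjusted p = 0.0117). In *Δsaf5* it was −0.24 ± 0.09, just past the threshold (edgeR adjusted p = 0.0497), and that call was lost under 9 of 14 other settings. The direct difference of *Δsaf5* from *Δcwf12* was −0.56 ± 0.09 (edgeR adjusted p = 0.000329). The major gene *rpl3001* gave 1314 and 1289 CPM in WT, 1339 and 1289 in *Δcwf12*, and 941 and 1186 in *Δsaf5* (−0.29 ± 0.11 on the log2 scale, edgeR adjusted p = 0.0445), a call lost under 8 of 14 other settings.

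The members lower in *Δcwf12* were *rpl302* and *rpl102*, given above, *rpl401* and *rpl3402*. *rpl401* (SPBC1711.06) encodes L4, which reaches into the exit tunnel, and measured 1563 and 1490 CPM in WT, 1281 and 1202 in *Δcwf12*, and 940 and 1062 in *Δsaf5*. The strains did not overlap, and the log2 fold change in *Δcwf12* was −0.30 ± 0.10 (edgeR adjusted p = 0.0224), a call lost under 4 of 14 other settings. *rpl3402* (SPCC1322.15), the minor gene for L34, gave 293 and 270 CPM in WT, 250 and 244 in *Δcwf12*, and 244 and 246 in the libraries labelled *Δsaf5*. It was nearly the same in both deletions, at −0.19 ± 0.07 and −0.20 ± 0.07 against WT (edgeR adjusted p = 0.0442 and 0.0329), and the call in *Δcwf12* was lost under 11 of 14 other settings and that in *Δsaf5* under 9. *rpl1702*, for a further protein of the tunnel wall, gave 1397 and 1235 CPM in WT and 1127 and 1081 in *Δcwf12*, at −0.25 ± 0.11, and did not pass the test (edgeR adjusted p = 0.0668). It passed under 6 of 14 other settings (DESeq2 adjusted p = 0.0366). *rpl2001* had the highest value after the 3 called genes, at 0.14 ± 0.10 (edgeR adjusted p = 0.307).

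Set directly against each other, 53 members were lower in the libraries labelled *Δsaf5* than in *Δcwf12*, none was higher and 6 did not pass the test (edgeR), where 27.8% of all genes were lower and 25.4% higher. At an unadjusted p under 0.05 the count was 0 higher and 55 lower, and DESeq2 gave the same numbers. Over all 6018 genes these rules gave 1712 higher and 1826 lower, and 1092 and 1367 with DESeq2. The median was −0.43 on the log2 scale, against 0.01 over all genes. Of the members, 2 were lower by at least 1.5-fold, against 11.1% of all genes. These were *rpp203*, at −0.65 ± 0.09 (edgeR adjusted p = 0.000125), and *rpp0*, at −0.60 ± 0.12 (edgeR adjusted p = 0.00107). *rpl1602*, with −0.57 ± 0.10, followed. Both *Δsaf5* libraries were below both *Δcwf12* libraries for 56 members, against 40.2% of all genes, the exceptions being *rpl39*, *rpp202* and *rpl3402*. Without the first *Δcwf12* library the median of the members was −0.38, against 0.02 over all genes. Without any other library it lay between −0.56 and −0.30 for the members. Calls of lower genes were fewest without the first *Δcwf12* library, among the members and over all genes.

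Most members belong to families with 2 or 3 genes, 24 families with 51 genes in all (21 pairs and 3 triples, grouped at 60% protein identity). Identical proteins were encoded by 6 of the 30 gene pairs. The share of a family's counts that each gene takes compares paralogues within a library, so the scaling between libraries does not enter. In the P2 family *rpp202* took 35.9% and 34.3% in WT, 48.9% and 47.6% in the libraries labelled *Δsaf5*, and 38.1% and 38.1% in *Δcwf12*. In *Δsaf5* it was the largest of the 3, a place held by *rpp201* in WT with 44.9% and 46.7%. *rpp203* went from 19.2% and 19.0% in WT to 12.4% and 12.8% in *Δsaf5*. The Wilson intervals of these and all other family shares were at most 1.1 points to either side.

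In the L36 family *rpl3602* took 38.2% and 38.3% in WT, 44.0% and 44.8% in *Δsaf5*, with 46.8% and 46.1% in *Δcwf12*. Both deletions were therefore above WT in share, although the level of *rpl3602* itself overlapped with WT in *Δsaf5*. In the L1 family *rpl102* took 19.7% and 18.5% in WT, 16.1% and 15.5% in *Δsaf5*, with 15% and 16.4% in *Δcwf12*. In the L30 family *rpl3002* took 11% and 10.6% in WT, 11.2% and 11.1% in *Δsaf5*, with 12.5% and 13.6% in *Δcwf12*. A share moved by over 2 points from the WT mean in 11 of 24 families in *Δsaf5* and in 10 in *Δcwf12*, and by over 5 points in 2 and 1. By contrast, *rpl501* kept to a range of 46.9% to 48.7% of the L5 family in all 6 libraries.

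**Figure D4:**
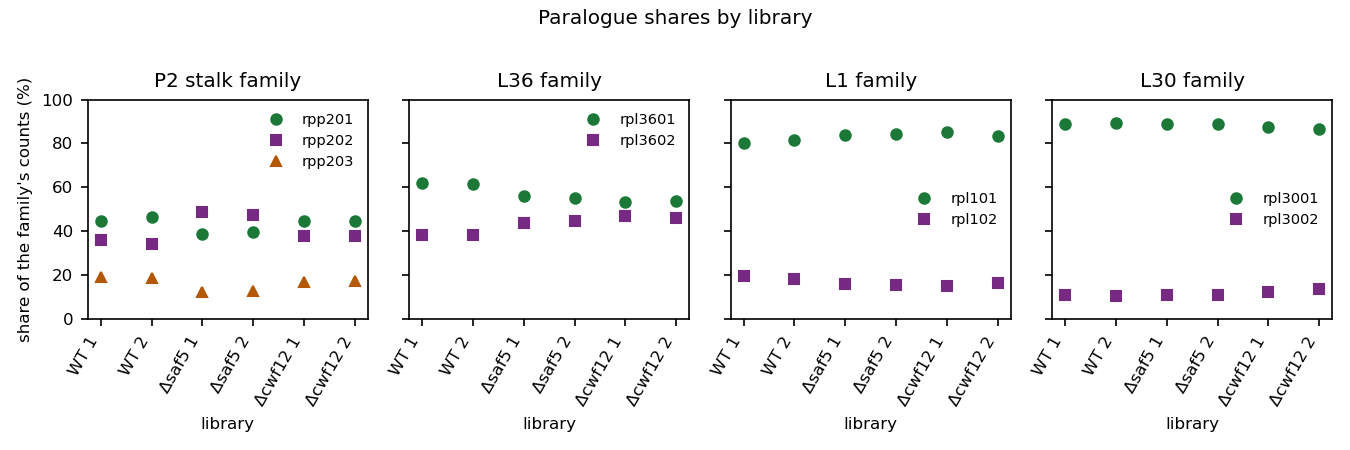
Share (%) of a family's counts taken by each paralogue in each library, for the P2, L36, L1 and L30 families; each point is 1 library. *rpp202* goes from 35.9% and 34.3% in WT to 48.9% and 47.6% in *Δsaf5*, and *rpl3602* is higher in all 4 deletion libraries than in WT.

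Per kilobase of the gene length given in the table, members spanned 185 to 3635 CPM in WT with a median of 1752, against a median of 38.7 over all coding genes. The highest were *rpl26* (3635), *rpl801* (3320) and *rpl502* (3164), and the lowest *rpl3002* (185), *rpl3402* (341) and *rpl102* (491), each of these last 3 the minor gene of a pair. With the summed exon length of RefSeq the highest were *rpl31* (4229), *rpl26* (4183) and *rpl39* (3716), *rpp0* went from 1484 to 3473, and the lowest 3 were the same genes. *rpl26*, whose protein sits at the end of the exit tunnel, was 1 of the 6 members that did not pass the test in *Δsaf5*, at −0.22 ± 0.11 on the log2 scale (edgeR adjusted p = 0.106). It passed under 2 of 14 other settings (DESeq2 adjusted p = 0.0439). *rpl801*, for a protein next to the peptidyl transferase centre, was lower by −0.61 ± 0.12 (edgeR adjusted p = 0.000978). The other 5 that did not pass were *rpl39*, *rpp202* and *rpl3602*, described above, and *rpl31* and *rpl2102*, named here after their values were seen, at −0.25 and −0.23.

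Members with introns were lower in *Δsaf5* in 20 of 24 cases (median log2 fold change −0.49, range −0.84 to 0.25) and members without introns in 33 of 35 (median −0.43, range −0.90 to −0.20). The ranges covered each other, except that the 3 members nearest to or above WT, *rpl39*, *rpp202* and *rpl3602*, all had introns. Members with introns also had shorter exons, with a median of 564 bases against 755. The count table gives 1 number per gene, which does not separate spliced from unspliced transcripts. Members with the HomolD letters were lower in 35 of 38 cases (median −0.45) and those without in 18 of 21 (median −0.46). With the HomolE core 18 of 21 were lower (median −0.43) and without it 35 of 38 (median −0.50). No difference between these groups was tested, since the genes share their libraries.

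Transcript length varied along with the fold change. The 20 members with the shortest exons (318 to 597 bases) had a median log2 fold change of −0.42 in *Δsaf5* and −0.03 in *Δcwf12*, and the 19 with the longest (783 to 1473 bases) had −0.61 and −0.13. Across the 59 genes, which share their libraries and are not replicates, the correlation of log2 exon length with the log2 fold change was r = −0.53 (rho = −0.44) in *Δsaf5* and r = −0.55 (rho = −0.50) in *Δcwf12*. A correlation of like size was present between duplicates of a strain, at r = −0.51 for the second against the first *Δsaf5* library and r = −0.45 for the *Δcwf12* duplicates, but r = 0.11 for the WT duplicates. For the fold change against WT in *Δsaf5* and *Δcwf12*, r was −0.59 and −0.51 over the 78 other 60S and 40S genes. Over 4891 other coding genes it was −0.13 and −0.11, and over the 500 of these with the highest WT CPM −0.12 and −0.09. The part of library preparation in the trend was not tested. The 30 members up to the median length were lower in *Δsaf5* in 24 cases, and all 29 above it were lower.

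**Figure D5:**
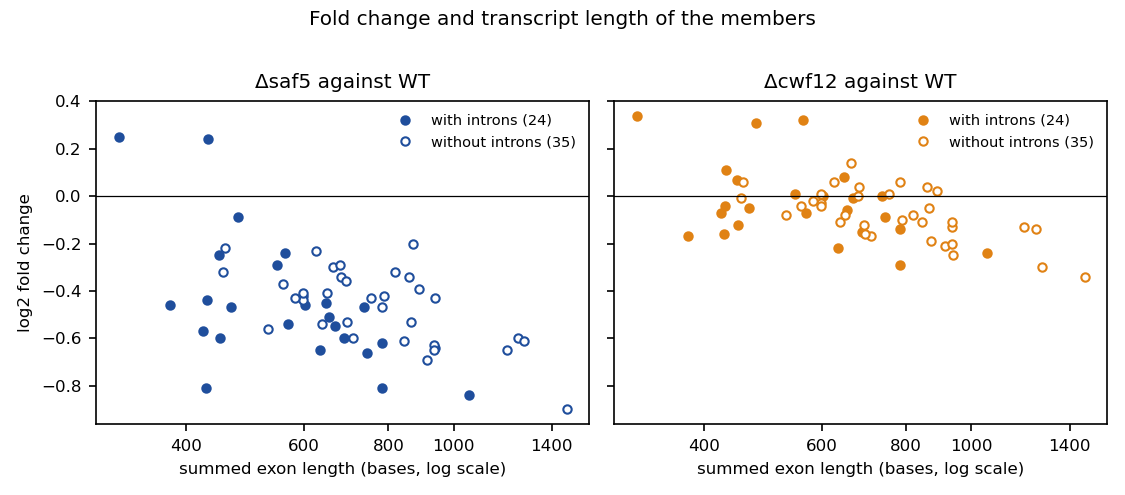
Log2 fold change against WT of each member against its summed exon length (bases, log scale), for *Δsaf5* (left) and *Δcwf12* (right); filled points contain introns. Values tend to fall with length in both panels (r = −0.53 and r = −0.55), with shorter genes such as *rpp203* (428 bases, −0.81 in *Δsaf5*) among the lowest, and *rpl39*, at 318 bases, is at the upper left.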

How the data were processed

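RNA was extracted from log-phase cultures, stranded mRNA libraries were sequenced as paired reads, and the authors aligned them with STAR to ASM294v2 and counted with HTSeq, per the paper and labels. Trimmomatic and DESeq2 also appear in the submitters' processing notes. The deposited values are raw counts per gene for 6 libraries, without normalization. The setting for strand is not given in the sources used here, and 47 members overlap an annotated antisense gene, so that reads of both may not be told apart.

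Genes were filtered with filterByExpr, scaled by TMM and fitted in edgeR 4.0.16 (R 4.3.3) in 1 model over the 3 strains (glmQLFit, glmQLFTest), with Benjamini-Hochberg adjustment over 6018 genes. No log2 fold threshold entered the main call. DESeq2 1.42.0, RLE factors, library totals, TMM without ribosomal protein genes, other count filters, a fit of only the compared strains, a replicate block and fits without 1 library each were alternatives. The test was run on counts simulated from its own fitted spread. These lack the differences between duplicates that followed transcript length, so the calls were not checked against them. P-values rest on a spread shared by the 3 strains, with 2 libraries per strain, whose duplicates differed unequally. Chi-square over its degrees of freedom was 21.9 for WT, 6.08 for *Δsaf5* and 1.99 for *Δcwf12*.

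All 59 members and 6846 of 7268 identifiers matched the RefSeq annotation of ASM294v3, from which coordinates, introns, promoters and proteins were read. The counts were made on another build version, and the deposited gene length was within 20% of the RefSeq span for 54 members; for *rpp0* it was 2471 against 1380 bases. Promoters were read from the genome sequence.

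Named were the P-stalk and 5S particle genes, in each contrast the 4 highest and 4 lowest members, the 4 families with the widest paralogue gap, and the 3 highest and lowest members per length in WT. The members and lists were chosen with earlier results of these data known.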

Additional observations from a re-analysis of the deposited data

How the results depend on the processing

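In *Δsaf5* against WT, the count of lower members was 18 at 1.5-fold and 0 at 2-fold. With a library left out the number of calls changed, for the members and for all genes. The count of higher members was 1 with DESeq2, 2 with library totals and 2 with at least 10 counts in every library. The median log2 fold change was −0.32 with library totals and −0.59 to −0.35 with libraries left out. Scaling by library totals moved the median of all genes by the same step, to 0.17 (0.16 for *Δsaf5* against *Δcwf12*), so that the members stayed 0.48 below it, a difference of −0.48 in both fits, and it turned the split of calls over all genes from 1489 higher and 1534 lower to 2255 and 883. In *Δcwf12* against WT, lower members numbered 7 with only those strains fitted and 2 with the replicate block. Over all genes these fits called 1450 of 5932 and 1470 of 6018 lower. The median of the members was −0.10 to −0.03 with libraries left out. None was called at 1.5-fold (0 higher, 0 lower) or 2-fold (0 and 0). In *Δsaf5* against *Δcwf12*, lower members numbered 2 at 1.5-fold, 0 at 2-fold and 24 to 56 with libraries left out, and 1 was higher with library totals. The median was −0.28 with library totals and −0.56 to −0.30 with libraries left out. The mean share of counts came to 8.99% for WT, 7.5% for *Δsaf5* and 8.75% for *Δcwf12* without the 10 most abundant other genes, and 8.12% in *Δcwf12* over coding genes. The median level in WT was 2170 CPM per kilobase with exon lengths. Deviations of same-numbered libraries correlated at 0.0523 (WT and *Δsaf5*), 0.00339 (WT and *Δcwf12*) and −0.0147 (*Δsaf5* and *Δcwf12*) over 6018 genes. These values show no pairing by number over all genes, but a difference shared by fewer genes was not tested. In both deletions the second library against the first correlated with the exon length of the members (r = −0.51 and r = −0.45). With the replicate block 47, 2 and 46 members were lower in the 3 comparisons. Of 1092 values of 26 named members under the alternatives, 969 kept direction and call, 83 lost the call, 31 gained it and 9 changed sign, none of them past the threshold on either side. These were *rpl3602* in *Δsaf5* against WT (0.05 with library totals, 0.06 without the first *Δsaf5* library), *rpl101* and *rpl3001* in *Δcwf12* against WT (−0.01 and −0.02 without the first *Δcwf12* library, and −0.01 for *rpl3001* without the second WT library), and *rpl3402* and *rpl39* in *Δsaf5* against *Δcwf12* (0.14 and 0.05 with library totals, 0.01 for *rpl3402* without the first *Δcwf12* library and 0.02 for *rpl39* without the first *Δsaf5* library). With libraries left out, the log2 fold changes of the named members ran from −0.96 (*rpp203*) to 0.36 (*rpl39*) in *Δsaf5* against WT, from −0.39 (*rpl302*, *rpl102*) to 0.37 (*rpl3002*) in *Δcwf12* against WT, and from −0.79 (*rpp203*) to 0.23 (*rpp202*) between the deletions. The cause of these changes was not tested.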

Other observations

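Most of the other ribosomal protein genes were lower in *Δsaf5* as well, where 25.5% of all genes tested were lower and 24.7% higher (edgeR, adjusted p under 0.05). Over all 6018 genes 1702 were lower and 1710 higher at an unadjusted p under 0.05, and 1284 and 1005 with DESeq2. Of the 23 other 60S genes, 19 were lower and 0 higher in the libraries labelled *Δsaf5* (edgeR, adjusted p under 0.05, median log2 fold change −0.38; 21 lower and 0 higher at an unadjusted p under 0.05, and the same counts with DESeq2), and of the 55 genes of the 40S subunit, 50 were lower and 0 higher (median −0.45; 52 and 0 by both). The furthest of all was *rpl1603*, a paralogue of *rpl1601* and *rpl1602* that is named here after its values were seen. As it is not a member, *rpl1603* did not enter the paralogue families above. This gene measured 208 and 201 CPM in WT, 41.8 and 42.2 in *Δsaf5*, with 119 and 113 in *Δcwf12*, and the strains did not overlap. The log2 fold changes were −2.28 ± 0.07 in *Δsaf5* (edgeR adjusted p = 5.9e-10) and −0.82 ± 0.06 in *Δcwf12* (edgeR adjusted p = 5.3e-07). In *Δcwf12* 25.5% of all genes were higher and 25.0% lower. There 1 other 60S gene was higher, *rpl4102* (0.44 ± 0.12, edgeR adjusted p = 0.0091), and 2 were lower, *rpl1603* and *rpl1002* (−0.31 ± 0.10, edgeR adjusted p = 0.023), also named after their values were seen.

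Among the factors that assemble the 60S subunit, most calls were lower, with a few higher in each deletion. Of 50 such genes measured, 2 were higher and 32 lower in *Δsaf5* (median −0.31; 1 and 29 with DESeq2), where 24.7% of all genes were higher and 25.5% lower. In *Δcwf12* 5 were higher and 12 lower (median −0.10; 4 and 10 with DESeq2), where 25.5% of all genes were higher and 25.0% lower. The single genes in this paragraph were chosen after their values were seen. The lowest in *Δsaf5* were *grn1*, at −0.79 (edgeR adjusted p = 0.00018), and *dbp3*, at −0.67 (edgeR adjusted p = 0.00037). *bcp1*, which in budding yeast escorts a ribosomal protein of the 60S subunit, was higher in both deletions, at 0.71 in *Δsaf5* (edgeR adjusted p = 0.00012) and 0.55 in *Δcwf12* (edgeR adjusted p = 0.00063), and *drs1*, a helicase of 60S assembly, was higher in *Δcwf12* at 0.77 (edgeR adjusted p = 2e-05). Of 9 elongation factor genes 5 were lower in *Δsaf5* (median −0.29). The genes *tef101*, *tef102* and *tef103*, which encode elongation factor 1A, gave −0.35, 0.06 and 0.31, and of these the first passed the test (edgeR adjusted p = 0.036).

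Among 4 genes reported in yeasts to bind or activate ribosomal protein promoters, 3 were lower in *Δcwf12*, where 25.0% of all genes were lower. *fhl1*, a forkhead factor, gave 79.5 and 83.2 CPM in WT, 67.8 and 80.1 in *Δsaf5*, with 52.2 and 48.8 in *Δcwf12*, a log2 fold change of −0.69 ± 0.09 in *Δcwf12* (edgeR adjusted p = 4.3e-05) and −0.14 ± 0.09 in *Δsaf5* (edgeR adjusted p = 0.2). *sfp1* and *ifh1* gave −0.45 and −0.41 in *Δcwf12* (edgeR adjusted p = 0.00062 and 0.00037). The remaining gene, *rrn7*, gave 0.13 ± 0.09 there and did not pass the test (edgeR adjusted p = 0.24). *ifh1* was also lower in *Δsaf5*, at −0.21 ± 0.07 (edgeR adjusted p = 0.022), where DESeq2 called 0 of the 4 lower. In the direct comparison *fhl1* was higher in *Δsaf5* than in *Δcwf12* by 0.55 ± 0.09 (edgeR adjusted p = 0.00027). *sfp1* and *ifh1* were also higher, by 0.30 and 0.20 (edgeR adjusted p = 0.0091 and 0.029), and *rrn7* was lower, at −0.31 ± 0.09 (edgeR adjusted p = 0.0091).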
